A study of Homo sapiens with 2 samples.

Results

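Cells of the human hepatocellular carcinoma line SNU-449 were compared after 24 h with ezetimibe and without it. Ezetimibe lowers cholesterol by blocking NPC1L1, which takes up sterols. There was 1 ezetimibe library and 1 control library of total RNA from this line, both grown in RPMI medium with serum. The labels give neither the dose nor a vehicle. The authors' deposited table names the genes called changed between the 2 libraries, each with a direction, under 327 KEGG pathways. It holds no level, fold change or p-value per gene, so the direction is all that can be said of a gene, and no difference has a replicate check. The comparison is named ezetimibe against control, so a gene listed as up is taken to be higher in the ezetimibe library. The depth of the libraries is unknown from this table, and it holds no level of a hepatocyte marker against which to check the line.

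The genes described are those listed under the Wnt or Notch signaling pathway and not also under the Hippo, TGF-beta, cell cycle or cytokine receptor pathways. The kinases MAPK9 and MAPK10 and the AP-1 subunit JUN were left out by name. The genes were thus chosen by the authors' calls of change in this same comparison. This leaves 51 genes of the 79 under the 2 pathways and of the 2238 listed in all, 36 from the Wnt row and 15 from the Notch row, with none in both. Of them, 14 were listed as up after ezetimibe and 37 were listed as down. Of all 2238 listed genes, 728 were up and 1510 were down. Counts by role below are of the 51 genes unless stated otherwise. Every one of the 51 was called changed by the authors, since that is how they were chosen. Over the 8877 background genes of the table the authors called 25.2% changed, 8.20% up and 17.0% down.

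Wnt proteins are secreted lipid-modified ligands that bind Frizzled receptors together with the co-receptors LRP5 and LRP6. In the branch through beta-catenin, binding halts the complex that marks beta-catenin for destruction, and beta-catenin then works with TCF factors at target genes; other branches steer cell polarity and calcium release. Notch receptors bind Delta and Jagged ligands on a neighbouring cell, are cut by gamma-secretase, and release a fragment that joins RBPJ and Mastermind coactivators in the nucleus. In liver, Wnt signals set the zones of hepatocytes and Notch signals direct bile duct formation, and mutations that activate beta-catenin are frequent in hepatocellular carcinoma.

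R-spondins bind LGR receptors and hold back the ligases that remove Frizzled from the cell surface, and these parts of the pathway were split in direction. The ligand RSPO3 was listed as up, and its receptor LGR4 and the ligase RNF43 were listed as down. The bases before their start sites are shown with those of DKK1, a secreted inhibitor of LRP6 listed as down, and of ROR1, a Wnt receptor listed as up. Each is the 250 bases before the RefSeq start on GRCh38.p14, 5′ to 3′ on the strand of the gene. Capitals mark a match to CTTTGAA, letters of a TCF binding site.
RSPO3 (chr6:127118421-127118670, plus strand): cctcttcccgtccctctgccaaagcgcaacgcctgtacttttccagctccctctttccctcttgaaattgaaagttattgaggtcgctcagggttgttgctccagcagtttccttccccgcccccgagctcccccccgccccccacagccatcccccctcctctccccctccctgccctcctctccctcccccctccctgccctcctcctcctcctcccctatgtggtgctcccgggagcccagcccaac
LGR4 (chr11:27472791-27473040, minus strand): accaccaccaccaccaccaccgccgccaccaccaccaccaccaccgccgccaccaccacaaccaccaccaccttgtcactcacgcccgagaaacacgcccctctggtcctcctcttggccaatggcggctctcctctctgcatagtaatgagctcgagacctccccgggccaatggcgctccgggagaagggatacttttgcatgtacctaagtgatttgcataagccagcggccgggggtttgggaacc
RNF43 (chr17:58417535-58417784, minus strand): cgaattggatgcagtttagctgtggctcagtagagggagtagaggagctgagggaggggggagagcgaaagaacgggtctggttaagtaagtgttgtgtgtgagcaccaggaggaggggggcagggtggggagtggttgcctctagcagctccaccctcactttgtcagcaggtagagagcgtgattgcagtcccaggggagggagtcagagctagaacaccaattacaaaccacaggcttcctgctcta
DKK1 (chr10:52314031-52314280, plus strand): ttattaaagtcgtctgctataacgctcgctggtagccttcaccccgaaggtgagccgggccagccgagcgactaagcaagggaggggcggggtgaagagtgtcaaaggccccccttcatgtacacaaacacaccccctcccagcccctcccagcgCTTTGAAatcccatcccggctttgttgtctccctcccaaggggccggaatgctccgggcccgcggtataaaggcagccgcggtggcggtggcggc
ROR1 (chr1:63773767-63774016, plus strand): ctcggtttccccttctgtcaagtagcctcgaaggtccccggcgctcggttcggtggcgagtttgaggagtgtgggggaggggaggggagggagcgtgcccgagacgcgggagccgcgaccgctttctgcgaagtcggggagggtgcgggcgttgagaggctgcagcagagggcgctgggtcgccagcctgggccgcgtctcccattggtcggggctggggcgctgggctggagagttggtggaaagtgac

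In these windows GC content was 64.8% for RSPO3 and 69.2% for ROR1, the genes listed as up. It was 62.0% for LGR4, 56.0% for RNF43 and 62.8% for DKK1, the genes listed as down. The window of SFRP4, also listed as down and not shown, had 64.4%. Over the 39 of the 51 genes with a promoter, the medians were 65.2% for up and 65.4% for down. The only TCF letters in the 5 windows shown were the capitals in DKK1, on the forward strand at positions -95 to -89 from the start. RNF43 has 2 RefSeq starts, and the window shown is that of the outer start.

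Among the 7 listed secreted and surface regulators of Wnt, 1 was up and 6 were down. The gene listed as up was RSPO3. All 5 secreted antagonists in the set were listed as down, a group named after the directions were seen. They were DKK1, the decoy receptors SFRP1 and SFRP4, which bind Wnt itself, the esterase NOTUM, which strips the lipid from Wnt, and SERPINF1, which binds LRP6. The glypican GPC4, a surface proteoglycan that holds Wnt near its receptors, was also down. For comparison, 1510 of all 2238 listed genes were down. NOTUM, DKK1 and RNF43 are known as feedback targets of beta-catenin in several tissues. Their transcripts differed widely in composition, with a GC content of 66.5% for NOTUM, 43.5% for DKK1 and 50.7% for RNF43. The direction of RNF43 is uncertain through shared exons, as given below. Wnt targets went both ways. Of those that KEGG draws, FOSL1, JUN and MYC were up and MMP7, CCND1 and CCND3 were down.

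Of the 5 listed receptors and regulators of receptor turnover, ROR1 was up and LRP6, RYK, LGR4 and RNF43 were down. LRP6 is the co-receptor of the beta-catenin branch, and ROR1 and RYK are kinase-like receptors for WNT5A. The Frizzled receptors stand under the Hippo pathway too and so are not among the 51 genes. Those listed were FZD2, FZD3, FZD4, FZD6 and FZD8, all as down, where 1510 of all 2238 listed genes were down. RNF43 shares 59.5% of its exon bases with other genes on its own strand in GENCODE release 29 and 20.3% with genes on the other strand. No source used here says how reads over shared exons were assigned, so the direction of RNF43 is uncertain. A direction is called uncertain here where over 10% of the exon bases are shared with other genes on either strand. DKK1, at 9.6%, and MAML2, at 9.0%, lie just under this limit, both through genes on the other strand.

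Below the receptors, the 4 listed regulators of Dishevelled and its partners were split. NKD2, which binds Dishevelled, and CSNK2B, the regulatory subunit of casein kinase 2, were up. CXXC4, which holds Dishevelled back, and FRAT1, which draws GSK3 away from the destruction complex, were down. CSNK2B lies on chromosome 6 at 31665236 to 31670343, plus strand, in GENCODE release 29 on GRCh38. It shares 11.7% of its exon bases with genes on the other strand, and a larger part with other genes on its own strand, so its direction is uncertain as well.

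The 4 listed genes of beta-catenin control were all down, and so was the 1 listed nuclear factor. Among all 2238 listed genes, 1510 were down. PRKACB is a catalytic subunit of protein kinase A, and CACYBP links the ligase SIAH1 to its partners in beta-catenin breakdown. TBL1X and its relative TBL1XR1 carry beta-catenin to target genes and exchange corepressors for coactivators. RUVBL1, the nuclear factor, is an ATPase that binds beta-catenin (chromosome 3, 128064778 to 128153914, minus strand), and 10.4% of its exon bases are shared with genes on the other strand, so its direction is uncertain. PRKACB lies on chromosome 1 at 84078062 to 84238498, plus strand. CACYBP has 3 processed copies named after it in GENCODE, which could take reads from it or give reads to it. The same holds for DTX2, FOSL1, NCSTN and RYK, with 1 such copy each.

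Of the Wnt target genes that KEGG draws, FOSL1 was up and MMP7 was down. FOSL1 encodes an AP-1 subunit (chromosome 11, 65892049 to 65900573, minus strand), and MMP7 a matrix protease (chromosome 11, 102520508 to 102530753, minus strand). The 4 targets left out by the rule were split too, with JUN and MYC up and the cyclins CCND1 and CCND3 down.

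The 5 listed genes of planar cell polarity, the branch that aligns cells through the cytoskeleton, had 2 up and 3 down. DAAM1, a formin that links Dishevelled to the actin cytoskeleton, and PRICKLE3 were up. PRICKLE1, the membrane protein VANGL1, which recruits Prickle proteins, and the cytoskeletal kinase ROCK2 were down. PRICKLE1 shares 23.6% of its exon bases with genes on the other strand, and its direction is uncertain.

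The Wnt calcium branch held 1 gene up and 7 down, beside 1510 down among all 2238 listed genes. The phospholipases PLCB3 and PLCB4, which start calcium release, were down, as were the protein kinase C gene PRKCA and the calmodulin-dependent kinase CAMK2D. Of the catalytic subunits of calcineurin, the phosphatase that sends NFAT factors to the nucleus, PPP3CC was up and PPP3CA down. NFATC2, one of these factors, was down. PPP3CC lies on chromosome 8 at 22440819 to 22541142, plus strand, and 10.3% of its exon bases are shared with a gene on the other strand, which leaves its direction uncertain. PRKCA lies on chromosome 17 at 66302636 to 66810743, PLCB3 on chromosome 11 at 64251523 to 64269150 and PLCB4 on chromosome 20 at 9068763 to 9481242, all on the plus strand.

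These kinases and phospholipases serve many receptors besides those of Wnt. PRKACB stood under 67 of the 327 pathways, PRKCA under 65, PLCB3 and PLCB4 under 51 each, and PPP3CA, PPP3CC and CAMK2D under 29 each. KEGG also places 8 of the 51 genes under Calcium signaling, with 1 up and 7 down, where that pathway as a whole had 15 up and 40 down. By contrast, 23 of the 51 genes stood under the Wnt or Notch row alone, with 7 up and 16 down.

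Among the 4 listed Notch ligands and receptors, the Delta ligands were up and the Jagged ligand and the receptor were down. DLL4 activates Notch in vessel sprouting (chromosome 15, 40929333 to 40939073, plus strand), and DLL3 is a divergent Delta that acts mainly as an inhibitor inside the cell (chromosome 19, 39498895 to 39508481, plus strand). JAG2, a Jagged ligand, and NOTCH4, a receptor best known from endothelium, were down. NOTCH1, NOTCH2, NOTCH3 and JAG1 were not listed under the Notch row. A gene that is not listed may have been unchanged by the authors' criteria or not expressed.

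The 4 listed genes of Notch modification and cleavage split by step. APH1A and NCSTN, subunits of gamma-secretase, the protease that releases the active fragment, were up. LFNG and MFNG, Fringe enzymes that add sugars to Notch and tune which ligand it answers, were down. APH1A shares 14.1% of its exon bases with a gene on the other strand, so its direction is uncertain.

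Of the 3 cytoplasmic regulators, NUMBL and DTX2 were up and DTX3L was down. NUMBL is a relative of the Notch inhibitor NUMB (chromosome 19, 40665905 to 40690972, minus strand). DTX2 is a Deltex ubiquitin ligase that binds Notch (chromosome 7, 76461676 to 76505995, plus strand). DTX3L is a Deltex relative that partners PARP9 in DNA damage and interferon responses (chromosome 3, 122564238 to 122575203, plus strand).

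All 4 listed nuclear factors of the Notch row were down. Among them, MAML2 and MAML3 are Mastermind coactivators of the Notch complex, and KAT2B is a histone acetyltransferase it recruits. These 3 and TBL1X, TBL1XR1 and RUVBL1 of the Wnt row, 6 transcriptional cofactors grouped after the directions were seen, were all down. The direction of RUVBL1 is uncertain, as said above. Of all 2238 listed genes 1510 were down.

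**Figure D1:**
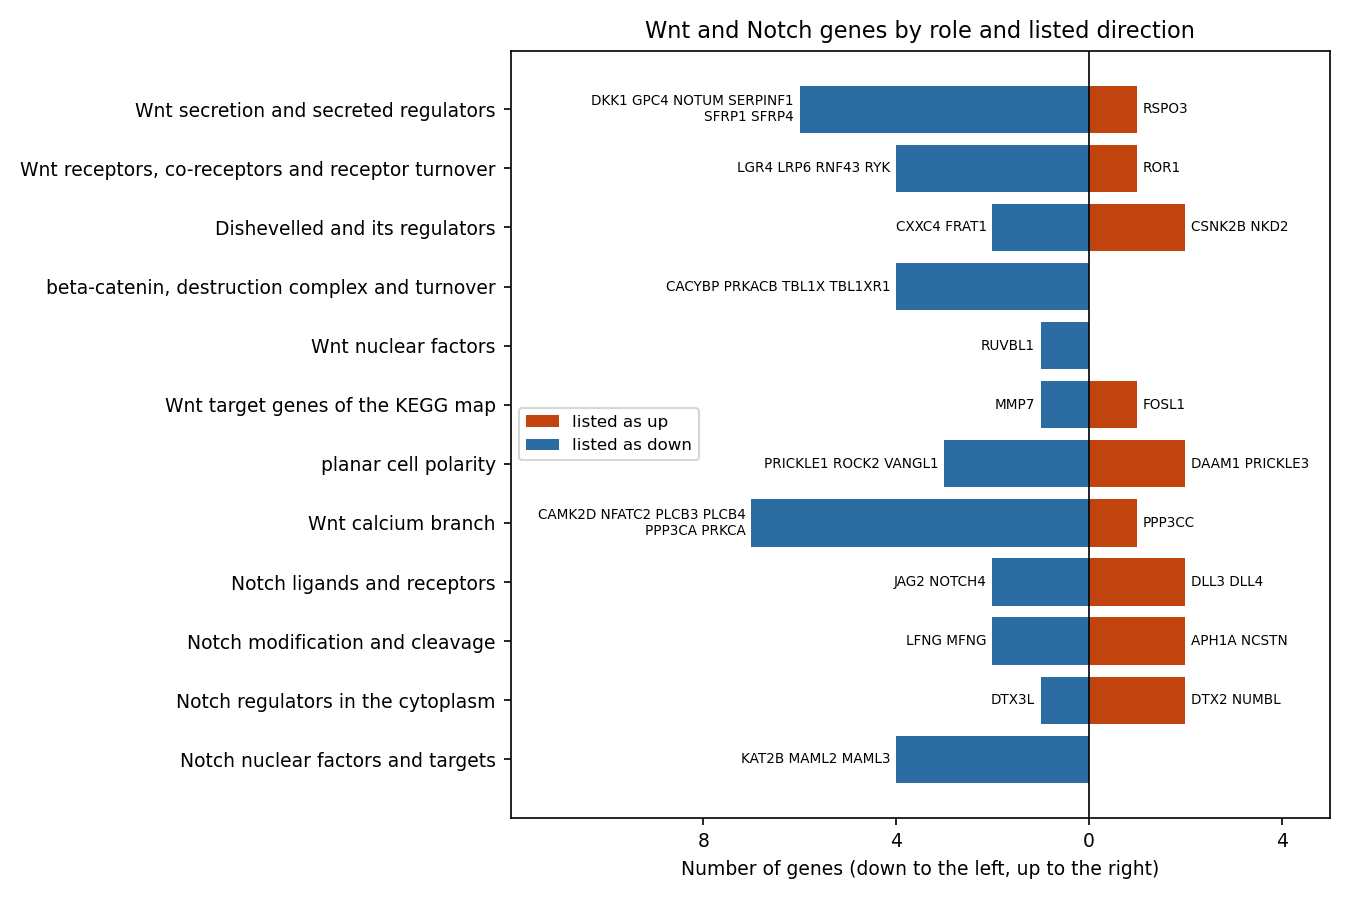
Number of Wnt and Notch genes listed as up (right of 0) and down (left of 0) after ezetimibe, by role, with most gene symbols beside the bars; each gene is counted once. The calcium branch held 1 gene up and 7 down, secreted regulators 1 and 6, and Notch nuclear factors 0 and 4. Dishevelled regulators, Notch ligands and receptors, and Notch modification and cleavage each held 2 up and 2 down. Of all 2238 listed genes, 1510 were down.

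The share listed as up was 27.5% for the 51 genes and 32.5% for all 2238 listed genes; of the 28 genes that the rule left out 7 were up. It was 22.2% for the genes of the Wnt row (8 of 36) and 40.0% for those of the Notch row (6 of 15). These shares come from the contrast that chose the genes and are given as a description, without a test. In the authors' deposited table the whole Wnt row had 63 of 172 genes changed, 36.6% of them, with a rich factor (share among changed genes over share among background genes) of 1.45, p = 0.0044 and q = 0.033. In the authors' deposited table the Notch row had 17 of 58 changed, 29.3%, with a rich factor of 1.16, p = 0.442 and q = 0.856. The authors' test takes genes as its units, and no source used here names it.

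The 28 genes left out by the rule include the listed Wnt ligands and Frizzled receptors, and 20 of the 28 stand under the Hippo pathway. Those listed as up included the ligands WNT11 and WNT9A, the transducer DVL1, the scaffold AXIN1, MYC and JUN. Those listed as down included the ligands WNT2, WNT2B, WNT5A and WNT7B, the kinase GSK3B, the destruction complex gene APC2 and the factor TCF7L2. The ligands of Wnt thus stood at 2 up and 4 down.

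Base composition moved with direction among the 51 genes, as it did over all listed genes. The median GC content of the longest GENCODE transcript was 57.8% for the 14 genes listed as up (39.3 to 67.5%) and 45.7% for the 37 listed as down (34.5 to 66.5%). Over all listed genes the medians were 55.2% for up and 43.6% for down. The ranges overlapped almost fully, and GC-rich transcripts such as NOTUM (66.5%) and JAG2 (64.0%) were listed as down. The part of base composition in the directions given here was not tested.

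**Figure D2:**
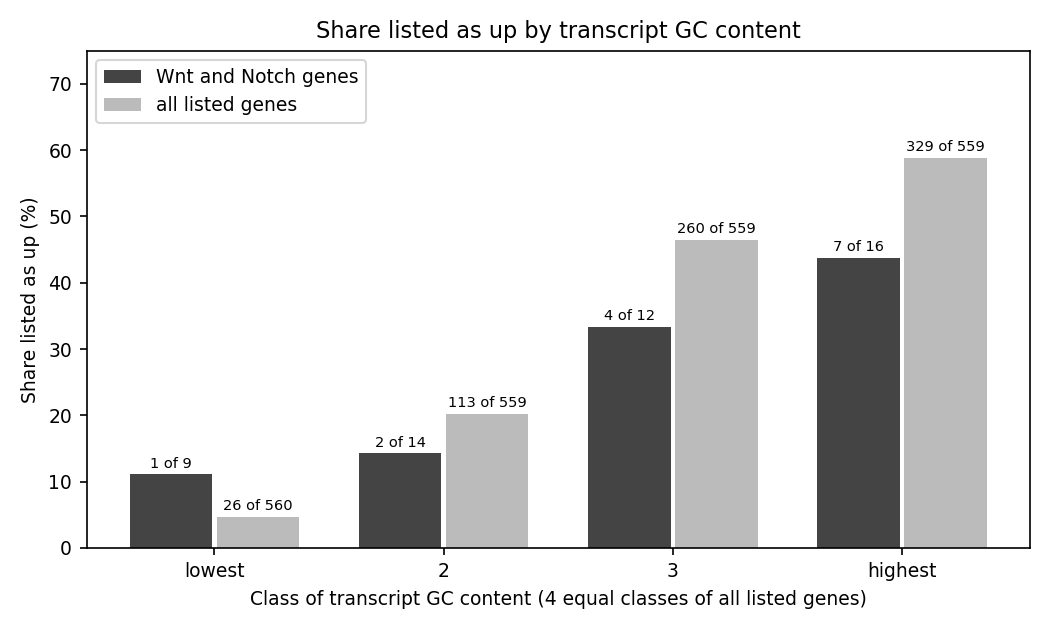
Share of genes listed as up (%) in 4 classes of transcript GC content, each with 559 or 560 of all listed genes, for the Wnt and Notch genes (dark bars) and all listed genes (light bars); numbers above the bars are genes listed as up of all genes in the class. Of the Wnt and Notch genes 1 of 9 was up in the lowest class and 7 of 16 in the highest, against 26 of 560 and 329 of 559 of all listed genes.

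Transcript GC content above the median of all listed genes (47.0%) was found in 28 of the 51 genes, of which 11 were up and 17 down (39.3% up). Of all listed genes above it, 52.7% were up. At or below it, 3 of 23 genes were up (13.0%), against 12.4% of all listed genes. These 3 were DAAM1, ROR1 and RSPO3. The genes of the Notch row had a median GC content of 59.8% and those of the Wnt row 45.3%, so the rows with the higher and lower share of up genes also differed in composition.

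Transcript length differed by direction as well, with a median of 2525 bases for the genes listed as up and 5270 bases for those listed as down. Of the 29 genes with a transcript above 3850 bases, the median of all listed genes, 2 were up (6.90%), against 20.7% of all listed genes of that length. They were DAAM1 and ROR1. Of the 22 shorter ones 12 were up (54.5%), against 44.4% of all listed genes. Among transcripts both above the median GC content and above the median length, 0 of 11 were up, against 39.7% of all such listed genes (169 of 426). The other 3 classes lay closer to all listed genes. Of short GC-rich transcripts 11 of 17 were up, against 60.7%; of short ones at or below the median GC content 1 of 5, against 18.0%; and of long ones at or below it 2 of 18, against 8.96%. These classes were formed after the directions were seen.

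**Figure D3:**
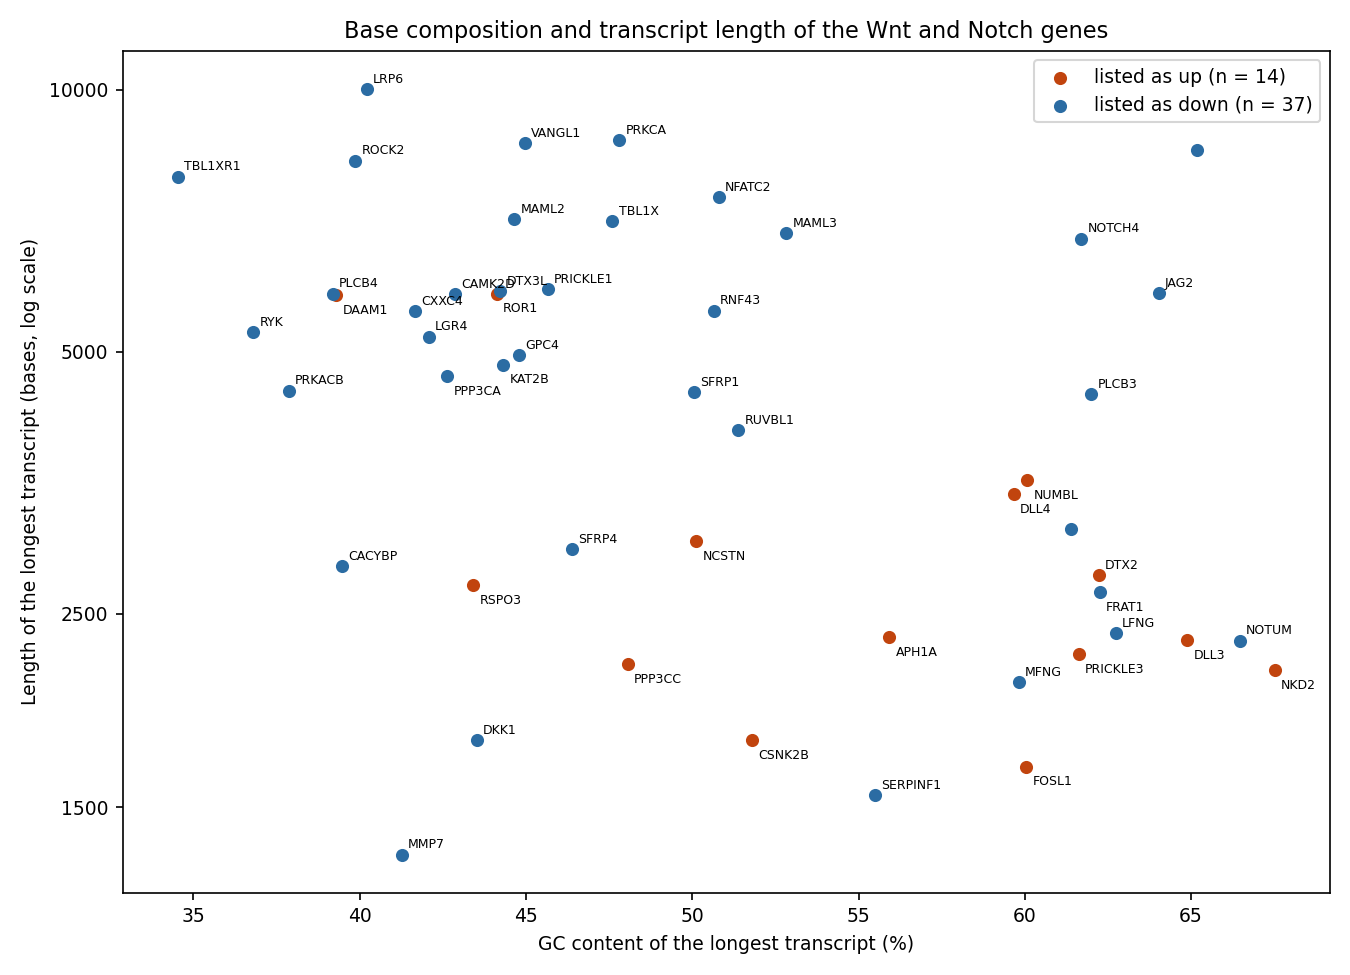
GC content (%) and length (bases, log scale) of the longest transcript of each of the 51 Wnt and Notch genes, most of them labelled, with the 14 listed as up in red and the 37 listed as down in blue. Of the 14 genes listed as up, 12 lie at or below 3850 bases, and DAAM1 and ROR1 lie above it.

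Related genes were listed in the same direction in 6 of 9 pairs. Of the 51 genes 37 were down, so a match in direction is frequent between unrelated genes too. Whether relatives match more often was not tested. Of 9 pairs of relatives among the 51 genes, 5 were both down (SFRP1 with SFRP4, TBL1X with TBL1XR1, PLCB3 with PLCB4, LFNG with MFNG and MAML2 with MAML3) and 1 was both up (DLL3 with DLL4). The other 3 were split. PPP3CC, listed as up, has a transcript of 2189 bases with 48.1% GC, against 4685 bases and 42.6% for PPP3CA, listed as down. PRICKLE3, listed as up, has 2246 bases with 61.6% GC, against 5902 bases and 45.7% for PRICKLE1, listed as down. DTX2, listed as up, has 2769 bases with 62.2% GC, against 5868 bases and 44.2% for DTX3L, listed as down. In all 3 split pairs the gene listed as up thus has the shorter and more GC-rich transcript. In 2 of these pairs the direction of 1 gene, PPP3CC or PRICKLE1, is uncertain through shared exons, so that split is uncertain too. The pairs were chosen after the directions were seen.

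The promoters of the 2 directions were close in median composition, unlike the transcripts. RefSeq promoters were matched for 39 of the 51 genes, 11 listed as up and 28 as down. For these genes the median GC content of the 250 bases before the start was 65.2% for up and 65.4% for down, while their median transcript GC content was 55.9% for up and 44.9% for down. Over all listed genes with a promoter the medians were 65.2% for up and 64.0% for down, and those of their transcripts 55.0% and 43.4%. MMP7, at 33.6%, and PRKACB, at 41.5%, had the promoters lowest in GC, and PRKCA, at 82.0%, the highest.

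**Figure D4:**
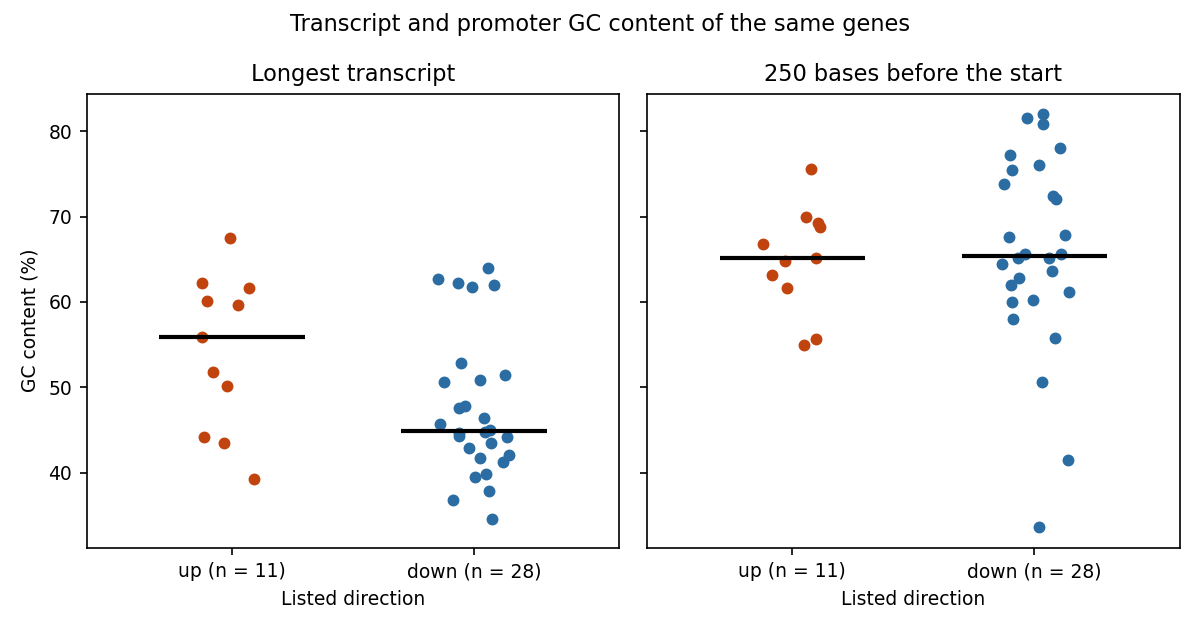
GC content (%) of the longest transcript (left) and of the 250 bases before the start (right) for the 39 Wnt and Notch genes with a RefSeq promoter; each point is a gene, the line is the median. Transcript medians were 55.9% for 11 genes listed as up and 44.9% for 28 listed as down, and promoter medians 65.2% and 65.4%.

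Letters of binding sites for factors of these pathways were searched on both strands of 55 promoter windows of the 39 genes. The letters GTGGGAA of RBPJ, the DNA-binding partner of Notch, stood in 1 window, that of VANGL1 (1.82%), against 5.43% of 35116 promoters in the RefSeq table. CTTTGAT or CTTTGAA of TCF factors stood in 3 windows (5.45%), of DKK1, MMP7 and PRKACB, against 5.94% of all promoters. CACGTG or CACGCG, bound by many helix-loop-helix factors including the Notch effectors HES and HEY, stood in 11 of the 55 windows, against 15.1% of all promoters. A match is a run of letters and shows no binding. Genes with no promoter in the table included DLL3, FOSL1, LRP6, MFNG, NOTUM, PLCB4, PPP3CA, PPP3CC, SERPINF1 and SFRP1.

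Other pathway rows that held several of these genes were led by Pathways in cancer, with 13 of them. There DLL3 and DLL4 were up, and the 11 listed as down included LRP6, FRAT1, JAG2 and NOTCH4. The Th1 and Th2 cell differentiation row, which draws Notch and NFAT signals in T cells, held 8, with DLL3, DLL4 and PPP3CC up and JAG2, MAML2, MAML3, NFATC2 and PPP3CA down. Thyroid hormone signaling held 7, all down, among them NOTCH4 and KAT2B. The human papillomavirus infection row held 6, all down, among them LFNG, MFNG, MAML2 and MAML3. As wholes, most of these rows were mainly down as well. Pathways in cancer had 58 genes up and 143 down, thyroid hormone signaling 11 and 32, and papillomavirus infection 39 and 93. Th1 and Th2 cell differentiation had 14 up and 11 down. In all, 129 of the 327 rows besides the Wnt and Notch rows held at least 1 of the 51 genes.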

How the data were processed

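Total RNA of 1 ezetimibe culture and 1 control culture was sequenced. HISAT2 2.0.4 and StringTie 1.3.0 were used, per the submitters' processing notes. Settings, genome build, annotation, strand, depth and the threshold for a changed gene were not given in the sources used here. From its name, the authors' table comes from edgeR and KEGG enrichment. It holds, per the file headers, gene numbers per pathway, an enrichment ratio (the rich factor), and a p-value and q-value, all the authors' own.

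Genes were taken from the table by Ensembl ID, and each was put in 1 of 12 roles (13 role lists, of which Wnt ligands held none of the 51). The genes and lists were chosen with earlier results of these data known, the groups, pairs and length classes after their directions were seen. By rule every gene of the set was to be named, with positions for those under the most pathways and in the smallest roles; some genes are counted but not reported here by name. No test was run, since there was 1 library per condition. GC content and length are those of the longest GENCODE release 29 transcript by gene ID (2237 of 2238 listed genes; all 51 members). Promoters are RefSeq, GRCh38.p14, cut to the 250 bases before each start. Exon overlap was taken from all exons of a gene. The code was tested on simulated tables. Alternatives were other row choices, subtractions, annotation limits, GC classes and motif letters. The software was Python 3.11.15 with pandas 2.3.3, NumPy 2.4.6, Matplotlib 3.10.9 and SciPy 1.17.1.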

Additional observations from a re-analysis of the deposited data

How the results depend on the processing

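The share listed as up was 27.5% for the 51 genes (exact Clopper-Pearson 95% interval 15.9 to 41.7, counting error over genes only). It stayed within this interval under 6 of the 7 alternatives that changed the set. These 6 ran from 22.2% for the Wnt row alone to 40.0% for the Notch row alone. The alternatives are parts of the 51 genes or hold all of them, so this is not an independent check. The share was 13.0% for the 23 genes at or below the median transcript GC content, outside the interval. The cause was not tested. Leaving out symbols that differ from the reference removed no gene. In the calcium branch it was 12.5%, and 0% without genes under more than 20 pathways, which leaves 1 gene. The median GC content of up minus down genes was 12.1 percentage points for transcripts of the 51 genes. It was -0.20 for promoters of the 39 genes that have one, so the sign reversed but the gap was small. The transcript medians of these 39 were 55.9% for up and 44.9% for down. With the shorter RBPJ letters TGGGAA, 16.4% of windows held a match, since fewer letters match more often, against 20.8% of all promoters. No paired analysis was possible because each condition has 1 library. No level, fold change or depth per gene was analysed here, so the size of a change and the spread between cultures are unknown.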

Other observations

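Genes known as targets of the pathways were also looked up over all rows of the table. Of 25 further Wnt targets, beside those that KEGG draws, 10 were listed, 2 as up and 8 as down. For comparison, the authors called 25.2% of the 8877 background genes changed, and 1510 of all 2238 listed genes were down. Of the targets that KEGG draws, FOSL1, JUN and MYC were up and MMP7, CCND1 and CCND3 were down. Among the 10 further targets, DKK1, NOTUM, RNF43 and BAMBI stand in the Wnt row itself. The growth factors FGF18 and VEGFA were up. The 4 in the Wnt row were down, BAMBI being a decoy receptor of TGF-beta signals, as were the survivin gene BIRC5, the ligand BMP4, the receptor MET and the TNF receptor family member TNFRSF19. Of 14 Notch targets, 5 were listed, 3 as up and 2 as down. HEY1, a repressor that Notch switches on in many tissues, was up with CDKN1A and MYC, and CCND1 and SOX9 were down; MYC and CCND1 also stand in the Wnt row. Many of these genes answer to other signals as well, and none of these counts was tested.

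Markers of liver cells and of other cell types were listed in part. The counts stand beside 25.2% of the 8877 background genes called changed and 1510 of all 2238 listed genes down. Of 11 hepatocyte markers 5 were listed, all as down (AFP, CPS1, FGA, FGB and FGG). Of 5 cholangiocyte markers SOX9 and SPP1 were down, and of 5 fibroblast markers ACTA2, COL1A1 and COL1A2 were down. Of 6 immune markers CD68 was up and CD14 down, and of 4 endothelial markers 0 were listed. Their levels are not in the table, and their part in the directions of the Wnt and Notch genes was not tested.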
